A study of Mus musculus with 2 samples.

Results

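The miRNAs described here come from the imprinted Dlk1-Dio3 locus of the mouse. They were chosen by name, as 38 mature miRNAs of that locus, by a rule that does not use their levels. The list was made with earlier results of these data known. Of the 38, 30 had a row in at least 1 of the 2 libraries, out of 1125 miRNAs listed in all, and 8 had no row and were dropped (miR-370-3p, miR-377-3p, miR-493-3p, miR-495-3p, miR-496a-3p, miR-539-5p, miR-665-3p and miR-668-3p). All 38 hairpins lie on the plus strand of chromosome 12 between Dlk1 (109452823 to 109463336) and Dio3 (110279068 to 110281097) in the GENCODE M21 annotation of GRCm38, the assembly also called mm10. They span 164 kb, from Mir493, 39.2 kb past the annotated start of Meg3, to Mir410, at 203 kb.

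The libraries are small RNA sequencing of helper T cells, 1 library from control Th0 cells and 1 from cells cultured toward Th17, the lineage that makes interleukin-17. Both cultures began with naive CD4+CD62L+ cells from the spleen of female C57BL/6 mice, of an age the labels do not give, in medium with 10% serum. Antibodies shared by both groups were 1 µg/ml of anti-CD28, 5 µg/ml of anti-IL-4 and 5 µg/ml of anti-IFN-γ. For the Th17 group 5 µg/ml of anti-IL-2, 5 µg/ml of anti-IL-12, 2 ng/ml of TGF-β, 10 ng/ml of IL-1β, and 40 ng/ml of both IL-6 and IL-23 were added, and that culture ran for 6 to 7 days. The labels do not say whether the Th0 culture lasted as long. The labels speak of triplicate profiling, but each group has 1 column of reads here, so no comparison below has a replicate check and none has a p-value. Listed reads totalled 8358010 in Th0 and 11975371 in Th17, and levels are given as CPM, the count scaled to 1000000 listed reads. The T cell markers fixed for the check of the label (miR-150-5p, miR-155-5p, both arms of miR-142a, miR-181a-5p and miR-342-3p) were all present, and their sum was 102303 CPM in Th0 and 136717 in Th17. miR-142a-5p held 57.0% of that sum in Th0 and 48.2% in Th17. Of these markers 4 were higher in Th17, and 2 were lower, miR-142a-3p and miR-342-3p (ratios of Th17 over Th0 0.525 and 0.557).

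At this locus the parental chromosomes are used differently. The protein-coding genes Dlk1, Rtl1 and Dio3 are expressed from the paternal chromosome, and the long noncoding RNAs Meg3, Rian and Mirg, with the miRNAs and small nucleolar RNAs that lie among them, from the maternal one. The miRNAs are thought to be cut from long maternal transcripts, are abundant in embryo, placenta and brain, and are known in blood from stem cells more than from mature lymphocytes. They fall into 3 stretches. The first holds 8 members on the Meg3 and anti-Rtl1 side, of which 5 (miR-431, miR-433, miR-127, miR-434 and miR-136) lie opposite the Rtl1 gene and match its messenger RNA by full complementarity. The Rian stretch holds 2 members, both inside the Rian gene model. The Mirg cluster, also called the miR-379/miR-410 cluster, holds 28 members over 34.7 kb, of which 11 lie inside the annotated Mirg model and 17 before its start.

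The mature sequences of the 9 members with at least 20 reads over both libraries are shown because the comparisons rest on them. They are given 5′ to 3′ from RefSeq (GRCm38.p6) with the seed, bases 2 to 8, in capitals, and in chromosomal order, the first 3 from the anti-Rtl1 stretch and the other 6 from the Mirg cluster.
miR-431-5p: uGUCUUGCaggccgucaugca
miR-127-3p: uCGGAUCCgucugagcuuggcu
miR-434-3p: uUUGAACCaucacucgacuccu
miR-411-5p: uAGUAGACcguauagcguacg
miR-300-3p: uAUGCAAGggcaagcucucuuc
miR-381-3p: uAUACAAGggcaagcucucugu
miR-541-5p: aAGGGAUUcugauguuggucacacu
miR-409-3p: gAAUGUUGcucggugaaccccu
miR-410-3p: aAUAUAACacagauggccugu
RefSeq held the mature sequence of 35 of the 38 members, and these 35 carried 35 different seeds. miR-300-3p and miR-381-3p differ at 3 of 22 bases, 1 of them in the seed. Since no source used here says how reads that fit both were assigned, their separate values are uncertain.

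On chromosome 12 (GRCm38, plus strand), Mir431 (109590447 to 109590537), Mir127 (109592846 to 109592915) and Mir434 (109594506 to 109594599) lie opposite the coding exon of Rtl1. Mir411 (109710175 to 109710256), Mir300 (109724313 to 109724391) and Mir381 (109726822 to 109726896) lie outside annotated host models. Mir541 (109742409 to 109742498) and Mir409 (109743158 to 109743236) lie in introns of Mirg, and Mir410 (109743715 to 109743795) overlaps an exon of it.

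The members were scarce in both libraries and scarcer in Th17. Their 1046 reads in Th0 made 125 CPM (exact Poisson interval 118 to 133), or 0.0125% of the library. Their 617 reads in Th17 made 51.5 CPM (47.5 to 55.8), or 0.00515%. The sum was 2.43-fold lower in Th17 (95% interval 2.20 to 2.69). This interval, like each interval below, is exact and covers counting error only, since reads from PCR without molecular identifiers are not independent molecules and the spread between cultures is not measured. In bulk RNA, fewer cells that express the locus and less of its RNA per cell cannot be told apart.

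The Meg3 and anti-Rtl1 stretch held the most abundant member. miR-127-3p, which is fully complementary to Rtl1, had 506 reads in Th0 and 363 in Th17, or 60.5 and 30.3 CPM. It ranked 184th among all miRNAs by reads in Th0 and 223rd in Th17, and it made up 48.4% of the members' reads in Th0 and 58.8% in Th17. It was 1.997-fold lower in Th17 (1.74 to 2.29), just short of the 2-fold line.

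miR-434-3p, also opposite Rtl1, had 90 reads in Th0 and 75 in Th17, or 10.8 and 6.26 CPM. It was 1.72-fold lower (1.25 to 2.37), and its interval excluded an equal level. miR-431-5p had 12 reads in each library, or 1.44 and 1.00 CPM, and its interval ran from 3.49-fold lower to 1.70-fold higher, so a difference was not detectable at this depth. miR-136-5p had 8 and 7 reads, again with an interval that held an equal level. miR-433-3p had 7 reads in Th0 and 0 in Th17. The exact Poisson interval of 0 reads in Th17 ends at 0.308 CPM, and the exact interval of the ratio of miR-433-3p, Th17 over Th0, ran from 0 to 0.484. Without miR-127-3p the stretch was 1.80-fold lower (1.36 to 2.38), and with it 1.96-fold lower (1.73 to 2.21), from 74.7 to 38.2 CPM.

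**Figure D1:**
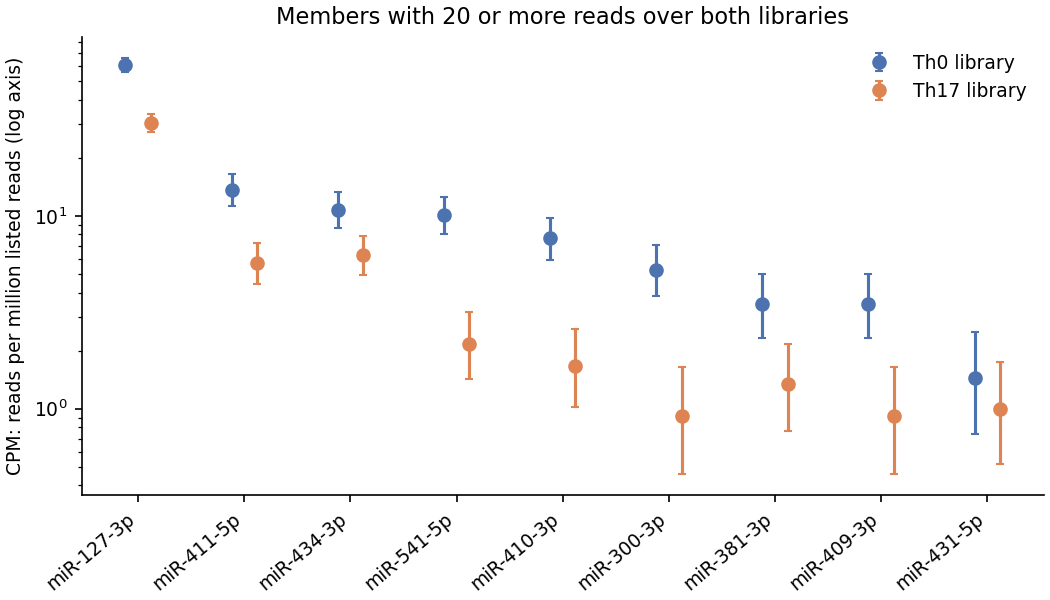
CPM (log axis) of the 9 members with at least 20 reads over both libraries, Th0 in blue and Th17 in orange, 1 library each, with 95% exact Poisson intervals. miR-127-3p stands above the others at 60.5 and 30.3, and the Th17 point lies below the Th0 point for each of the 9, with overlapping bars for miR-431-5p.

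In the Mirg cluster the sum was 50.3 CPM in Th0 (420 reads) and 13.3 in Th17 (159 reads), 3.78-fold lower (3.15 to 4.57). Its most abundant member was miR-411-5p, with 114 reads in Th0 and 68 in Th17, or 13.6 and 5.68 CPM, 2.40-fold lower (1.76 to 3.29). miR-541-5p had 84 and 26 reads, or 10.1 and 2.17 CPM, 4.63-fold lower (2.95 to 7.49). miR-410-3p, the last hairpin listed, had 64 and 20 reads, or 7.66 and 1.67 CPM, 4.58-fold lower (2.74 to 7.999).

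miR-409-3p, whose hairpin lies between those of miR-541 and miR-410, had 29 and 11 reads and was 3.78-fold lower (1.83 to 8.38). In the middle of the cluster miR-300-3p had 44 and 11 reads and was 5.73-fold lower (2.91 to 12.3). Its near copy miR-381-3p had 29 and 16 reads and was 2.60-fold lower (1.36 to 5.12). The intervals of these 6 members of the cluster all overlap each other, and the differences between them were not tested.

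By level, miR-411-5p, miR-434-3p, miR-541-5p and miR-410-3p followed miR-127-3p in Th0, and each interval in this run of 4 overlapped that of its neighbour. In Th17 the order was miR-434-3p, miR-411-5p, miR-541-5p and miR-410-3p. The intervals of miR-434-3p (4.93 to 7.85 CPM) and miR-411-5p (4.41 to 7.20) overlapped, and that of miR-541-5p (1.42 to 3.18) lay below both.

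**Figure D2:**
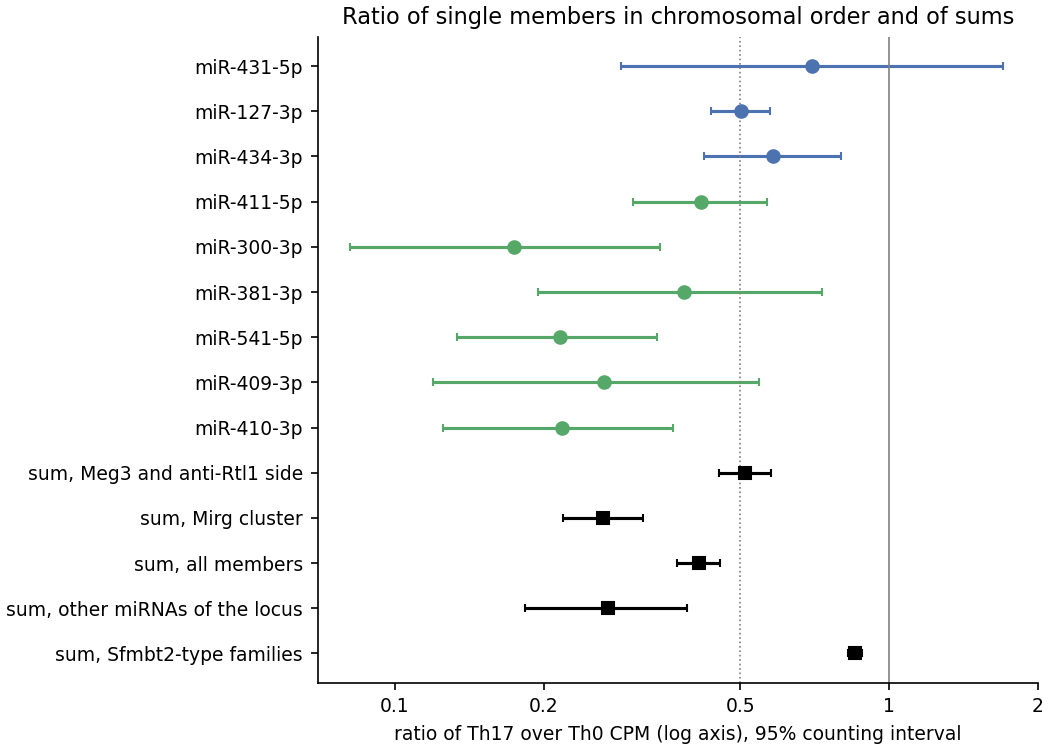
Ratio of Th17 over Th0 CPM (log axis) with 95% exact intervals of counting error, for single members in chromosomal order (blue, anti-Rtl1 stretch, and green, Mirg cluster) and for sums (black squares). Solid and dotted lines mark equal levels and 2-fold lower. The 6 Mirg members lie left of the dotted line and the 3 anti-Rtl1 members on or right of it, and the sum of all members is 2.43-fold lower.

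Only 9 of the 38 members reached 20 reads over both libraries. Of these 9, 6 were at least 2-fold lower in Th17 with an interval that excludes an equal level, all of them in the Mirg cluster, and none was at least 2-fold higher. Over all 547 miRNAs with 20 reads or more, 13.3% were called lower and 11.2% higher by the same rule. Among the 351 with 20 to 1000 reads, the range that holds all 9, 15.1% were called lower. An interval below an equal level was found for 8 of the 9, against 35.3% of the 547. The median ratio of Th17 over Th0 was 0.385 for the 9 and 0.977 for the 547. Of the 9, 3 (miR-300-3p, miR-381-3p and miR-409-3p) had 20 reads in Th0 but not in Th17, so they passed the minimum through the library in which they were higher. Of the 5 members with at least 20 reads in Th17 itself, 3 were called lower. The share over all miRNAs with at least 20 reads in Th17 itself was not computed, so these 3 have no matched background. Members cut from shared transcripts are not independent of each other, and these counts are a description of the 2 libraries.

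The other 21 listed members had between 0 and 13 reads in Th0 and between 0 and 7 in Th17. Together they had 74 reads in Th0 and 15 in Th17, 7.07-fold lower (4.02 to 13.3). Of the 21, 20 had a higher CPM in Th0, against 50.7% of all 578 miRNAs under 20 reads. The summed reads of those 578 stood at a ratio of 0.862 (0.803 to 0.926).

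Within this scarce set, 13 members had reads in Th0 and 0 in Th17, and 1 (miR-376a-3p, 1 read) the reverse, although the Th17 library was 1.43 times as deep. Reads in Th0 with 0 in Th17 were found for 19.6% of the 578. Over all 1125 miRNAs, 10.0% had reads in Th0 only and 12.4% in Th17 only. Of the 30 listed members 43.3% had reads in Th0 only and 3.33% in Th17 only. Besides miR-433-3p, miR-666-5p and miR-376b-3p had 5 reads each in Th0, and the interval of their ratio ended at 0.762. miR-369-3p and miR-376c-3p had 4 reads each in Th0, and their interval, up to 1.06, held an equal level. The other 8 of the 13, each with 1 to 3 reads in Th0, were miR-323-3p, miR-379-5p, miR-487b-3p, miR-667-3p, miR-154-5p, miR-337-3p, miR-380-3p and miR-494-3p, and their intervals held an equal level too.

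miR-134-5p, a brain miRNA that limits dendritic spine size in neurons, had 13 reads in Th0 and 1 in Th17, a ratio of Th17 over Th0 of 0.0537 (0.00126 to 0.357). miR-543-3p had 5 reads and 1, and miR-382-5p 3 and 2, with intervals that held an equal level. The miR-376 group had 5 reads of miR-376b-3p and 4 of miR-376c-3p in Th0, both with 0 in Th17. The sequences of miR-376a-3p and miR-376b-3p are shown with seeds in capitals because these members resemble each other, that of miR-379-5p because its seed differs from that of the more abundant miR-411-5p at 1 base, and that of miR-134-5p as the neural member described above.
miR-376a-3p: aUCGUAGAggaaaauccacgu
miR-376b-3p: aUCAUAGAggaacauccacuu
miR-379-5p: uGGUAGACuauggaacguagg
miR-134-5p: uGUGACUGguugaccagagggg
miR-376a-3p and miR-376b-3p differ at 3 of 21 bases. miR-379-5p, from the first hairpin of the cluster, differs from miR-411-5p at 7 of 21 bases over the whole sequence. It had 2 reads in Th0 and 0 in Th17, against 114 and 68 for miR-411-5p.

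**Figure D3:**
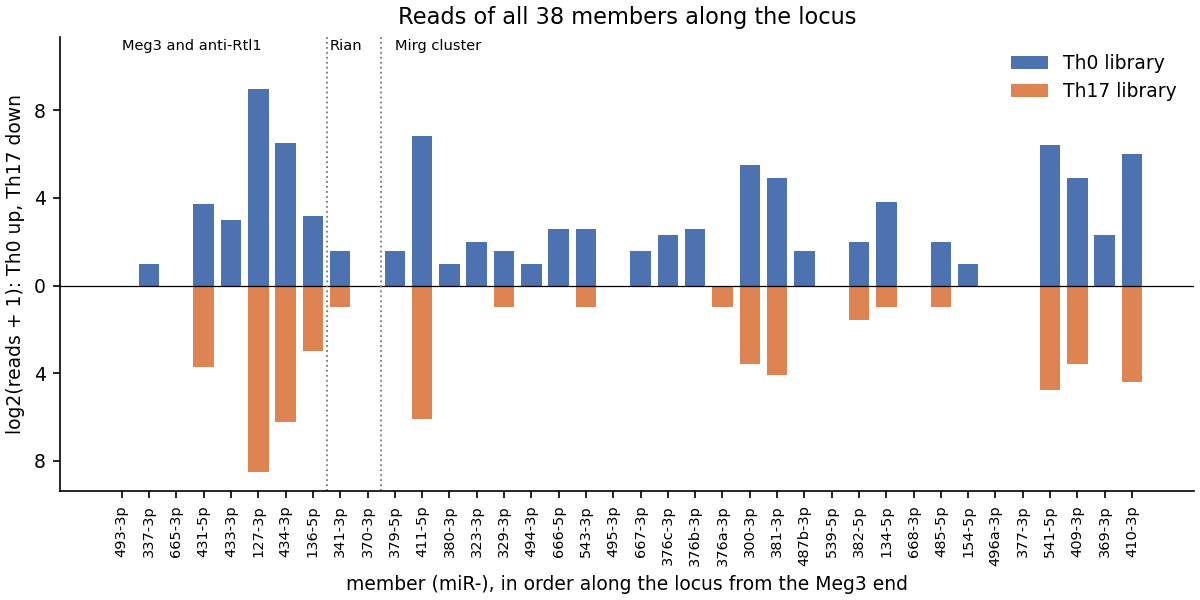
Reads of all 38 members in order along the locus, as log2(reads + 1), Th0 upward in blue and Th17 downward in orange, not scaled for the 1.43 times greater depth of Th17. Dotted lines divide the Meg3 and anti-Rtl1, Rian and Mirg stretches, and most Mirg members between miR-411-5p and miR-300-3p have reads upward only.

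The stretches were also compared with each other inside each library, which does not depend on how libraries are scaled. Of the reads of the Mirg cluster and the Meg3 and anti-Rtl1 stretch together, the Mirg cluster held 40.2% in Th0 (exact binomial interval 37.2 to 43.3%, 1044 reads) and 25.8% in Th17 (22.4 to 29.5%, 616 reads). The Mirg cluster was thus lower by a further 1.93-fold (exact conditional interval 1.55 to 2.42) relative to the other stretch. Without miR-127-3p this factor was 2.10 (1.496 to 2.95). The Rian stretch had 3 reads in all, from miR-341-3p, and no comparison was possible for it.

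The hairpins listed for the stretch from Meg3 to Mirg also gave 23 mature miRNAs that were not among the 38, mostly the opposite arms of the same hairpins, and these were not used to choose the members. They summed to 106 reads in Th0 and 41 in Th17, 3.70-fold lower (2.56 to 5.45). That list left out miR-1247, which lies beside Dio3 and whose arms had 3 reads in Th0 and 49 in Th17. With both of its arms the sum was 109 and 90 reads, 1.74-fold lower (1.30 to 2.32). The 23 include the miR-3071 arms, which lie on the minus strand. The plus-strand miRNAs among the 23 summed to 89 and 28 reads, 4.55-fold lower (2.95 to 7.24). Of the 23, 2 had at least 20 reads. miR-434-5p had 31 reads in Th0 and 7 in Th17, 6.35-fold lower (2.74 to 17.1). It passed the minimum through Th0, the library in which it was higher. Without miR-434-5p, an alternative added after seeing the data, the others of the 23 had 75 and 34 reads, 3.16-fold lower. miR-3071-5p had 11 and 13 reads, with a ratio of 0.825 and an interval (0.341 to 2.03) that held an equal level. An interval below an equal level was found for 4 of the 23, and none lay above it. Among the 547 miRNAs with 20 reads or more, 193 (35.3%) had an interval below an equal level and 174 above it. Most of the 23 fall short of that minimum, and no share was computed for all miRNAs at such low counts. miR-337-5p had 14 and 5 reads, 4.01-fold lower (1.37 to 14.2), and miR-540-3p 11 and 2, 7.88-fold lower (1.72 to 73.2). For the miR-337 hairpin the listed member, miR-337-3p, was the rare arm, with 1 read in all.

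Arm use was measured for the 12 hairpins of the locus with at least 20 reads. In 5 of them under 10% of the reads were 5p, in 4 over 90% were, and 3 (mir-434, mir-3071 and mir-136) lay between. Of the 121 reads of mir-434 in Th0, 25.6% were 5p (18.1 to 34.4%), and of its 82 reads in Th17 8.54% were (3.50 to 16.8%), and these intervals do not overlap. For each of the other 11 hairpins they overlapped. The mir-434 hairpin is shown with both mature arms in capitals, 5p first. It lies at chr12:109594506-109594599 on the plus strand (GRCm38.p6).
Mir434 hairpin: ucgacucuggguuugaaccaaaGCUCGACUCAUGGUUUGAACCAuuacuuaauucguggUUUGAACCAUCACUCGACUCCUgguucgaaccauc

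**Figure D4:**
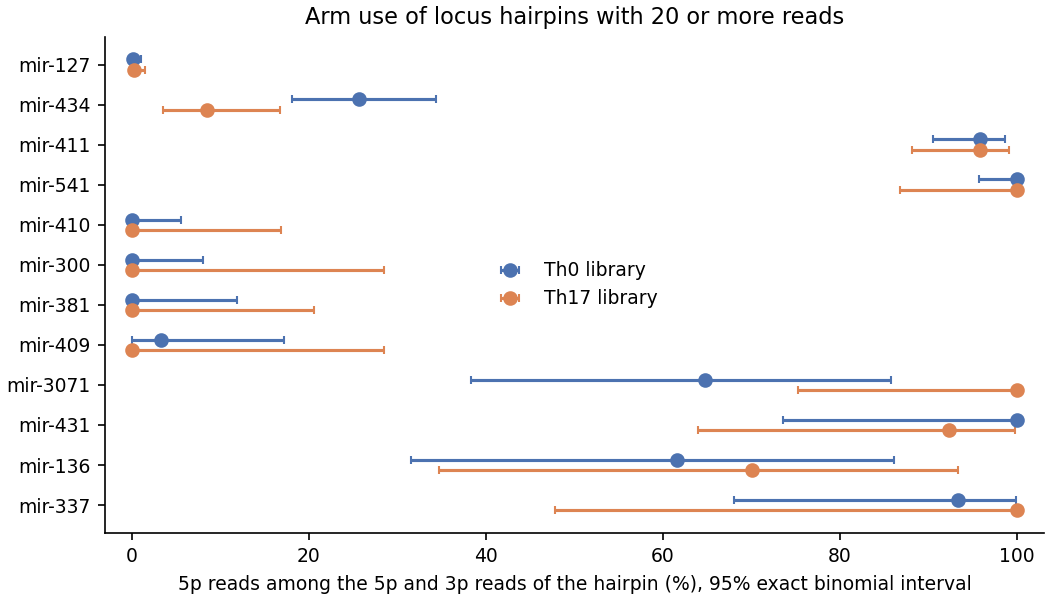
Share of 5p reads among the 5p and 3p reads (%) of the 12 locus hairpins with at least 20 reads, Th0 in blue and Th17 in orange, with 95% exact binomial intervals. Most hairpins sit near 0% or 100% in both libraries, and mir-434 moves from 25.6% in Th0 to 8.54% in Th17.

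At 1 hairpin both strands of the locus gave miRNAs. Mir136 lies on the plus strand and Mir3071 opposite it on the minus strand, the strand of Rtl1. miR-3071-5p and miR-136-3p overlap by 19 bases, all of them complementary, and are shown for that reason with seeds in capitals.
miR-136-3p: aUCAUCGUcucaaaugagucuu
miR-3071-5p: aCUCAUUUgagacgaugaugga
The 2 arms of miR-3071 differed. miR-3071-5p had 11 reads in Th0 and 13 in Th17, and miR-3071-3p 6 and 0, with a ratio interval from 0 to 0.593. Summed over arms, miR-136 had 13 reads in Th0 and 10 in Th17, and miR-3071 17 and 13. miR-136 thus held 43.3% of these Th0 reads (25.5 to 62.6%) and 43.5% of the Th17 ones (23.2 to 65.5%), and the relative change of one against the other had an interval from 0.291 to 3.43, which leaves room for differences in both directions.

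The promoter of Meg3 is shown because the maternal transcripts run from that end. Whether it bears on the members' levels was not tested. It is a RefSeq window of 300 bases at chr12:109540746-109541045 (plus strand, GRCm38.p6), 250 before and 50 after the start, with the cAMP response element TGACGTCA in capitals.
Meg3 promoter: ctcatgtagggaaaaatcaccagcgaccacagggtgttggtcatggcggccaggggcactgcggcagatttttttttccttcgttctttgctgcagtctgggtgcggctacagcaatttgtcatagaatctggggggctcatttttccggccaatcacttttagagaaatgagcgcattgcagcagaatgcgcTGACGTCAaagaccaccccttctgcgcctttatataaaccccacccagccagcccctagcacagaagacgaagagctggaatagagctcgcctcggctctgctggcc
The motif reads the same on both strands and occurred 1 time in this window. It was also found in 588 of all 32851 promoter windows of this length, or 1.79%, and in 1 of 2 windows listed for Meg3. The match describes the sequence only, and no binding was measured here.

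One comparison list within the series was another rodent group of clustered miRNAs, the Sfmbt2-type families miR-466, miR-467, miR-669 and miR-297, whose main cluster lies in an imprinted gene. The other list, both arms of miR-675 from H19, had no row in either library. Its 70 listed miRNAs summed to 844 CPM in Th0 and 720 in Th17, a ratio of 0.853 (0.826 to 0.880). Relative to it the Dlk1-Dio3 members were lower by a further 2.07-fold (exact conditional interval 1.86 to 2.30). Among its 44 miRNAs with at least 20 reads, 3 were at least 2-fold lower and none was at least 2-fold higher, and the median ratio was 0.914. A drop of the members' size was not particular to their locus. Outside both lists, miR-296-5p and miR-296-3p were called lower too, with ratios of 0.413 and 0.394, while miR-298-5p stood at 0.806. These 3 were picked after their values were seen.

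Markers of other cells moved in both directions beside the members. Both arms of the endothelial miR-126a were lower in Th17, and their sum went from 191 to 85.9 CPM, 2.23-fold lower (2.06 to 2.41). The 5 epithelial miRNAs of the miR-200 family went from 387 to 208 CPM, with 4 lower and miR-200c-3p higher. The sum of the 5 fibroblast and stromal miRNAs went the other way, from 2.63 to 27.4 CPM. Of these, 4 were at least 2-fold higher, and miR-145a-5p had 1 read in each library. Of 7 neural miRNAs, miR-137-3p and miR-219a-2-3p had no row, miR-124-3p had 0 and 2 reads, and the sum went from 1072 to 970 CPM, of which miR-128-3p held 95.1% in each library. miR-9-5p and miR-9-3p had 116 and 8 reads in Th0 and 57 and 0 in Th17. The erythroid sum was 0.718 and 2.17 CPM, the muscle sum 0.239 and 1.00, and the myeloid miR-223-3p 3.35 and 6.76. The liver miR-122-5p had 0 reads in Th0 and 1 in Th17. The part of these cells in the members' lower level was not tested.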

How the data were processed

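The data are 2 small RNA libraries, Th0 and Th17, made with TruSeq small RNA chemistry and sequenced on an Illumina HiSeq, per the labels' protocols. The authors deposited, per mature miRNA, a whole-number read count and a TPM value, per the file headers. Per the submitters' processing notes, reads were placed on mm10. The trimming and alignment steps were not given in the sources used here.

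A miRNA without a row counted as 0 reads (the smallest listed count was 1). Counts were divided by each file's column sum. Ratios are Th17 over Th0 without a pseudocount, with exact conditional (Clopper-Pearson) 95% intervals from SciPy 1.17.1, tested on simulated data. A call needed at least 20 reads over both libraries, a 2-fold ratio and an interval excluding an equal level. Alternative scalings were edgeR 4.0.16 (TMM), DESeq2 1.42.0 (size factors), the totals implied by the deposited TPM (9072995 and 13070648 reads) and sums without the 10 most abundant miRNAs. Members with at least 20 reads, or with 0 reads in 1 library, were named by rule, as were other locus miRNAs with at least 100 reads, of which there were none. Members named besides these, and miR-434-5p, miR-337-5p, miR-540-3p, miR-3071 and miR-1247, were chosen after their values were seen. The members and lists were chosen with earlier results of these data known. With 1 library per group there is no test of the conditions.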

Additional observations from a re-analysis of the deposited data

How the results depend on the processing

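The members' summed log2 ratio was -1.28 and stayed between -1.41 and -1.20 under the 4 other scalings. It was -1.61 without the most abundant member, miR-127-3p, and -1.71 without miR-127-3p and miR-411-5p, an alternative added after seeing the data. The count of members at least 2-fold lower was 6 and became 7 with the totals implied by TPM and without the 10 most abundant miRNAs in the sums, where miR-127-3p passed the 2-fold line (ratios 0.498 and 0.458). The latter scaling moved every log2 ratio by -0.13. Over all 547 miRNAs with 20 reads or more, the count of lower calls was 73, and it became 78 and 90 under these 2 scalings. With no minimum of reads the members' count was 10, and with at least 10 reads 7. The share over all miRNAs was not computed at these 2 minimums. The member added with at least 10 reads was miR-134-5p (13 reads in Th0 and 1 in Th17). With no minimum miR-433-3p (7 and 0), miR-666-5p and miR-376b-3p (5 and 0 each) were added too. All of these entered through Th0, the library in which they were higher, so the larger counts add no support. The relative log2 change of the Mirg cluster against the Meg3 and anti-Rtl1 stretch was -0.95, and -1.30 without miR-411-5p, also added after seeing the data. The summed log2 ratio of the 23 other miRNAs of the locus was -1.89, and -0.80 with both arms of miR-1247, added after seeing the data. Counts under 20 reads limit the ratios of 21 members. No paired analysis was possible because each group has 1 library. Leaving out a replicate was not possible for the same reason.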

Other observations

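At the other end of the domain, miR-1247 lies on the minus strand beside Dio3, inside the annotated transcript Dio3os (110275385 to 110278172). It is neither among the 38 members nor on the list of locus hairpins, and it was chosen after its values were seen. miR-1247-5p had 2 reads in Th0 and 46 in Th17, or 0.239 and 3.84 CPM, a ratio of 16.1 (4.20 to 137). miR-1247-3p had 1 and 3 reads. The mature sequence of miR-1247-5p is shown with the seed in capitals, because its interval lay above an equal level. That was so for none of the 11 miRNAs of the locus list with at least 20 reads. Among all 547 miRNAs with that minimum it was so for 174. miR-1247-5p reached the minimum only through Th17, the library in which it was higher.
miR-1247-5p: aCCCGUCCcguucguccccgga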
